A study of Mus musculus with 11 samples.

Results

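Tcf7 and Lef1 were examined through every H3K27ac and Smc1a peak called in a pair of fixed windows of the mouse genome (build mm9). The Tcf7 window spans chromosome 11 from 52030000 to 52190000 and the Lef1 window chromosome 3 from 130760000 to 130980000. They held 92 and 72 peaks, together 164 of the 120616 peaks in the 6 deposited lists. A peak was a member if any part of it lay in a window. The rule uses position alone, but the loci were picked with earlier results of these data known.

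Tcf7 and Lef1 encode TCF-1 and LEF-1, related transcription factors that bind DNA through an HMG box. They recruit β-catenin as a co-activator or Groucho/TLE proteins as co-repressors. TCF-1 is switched on by Notch signals in the earliest thymic progenitors and helps to establish the T cell programme. With LEF-1 it is needed for the passage to the CD4+ CD8+ stage and for the later choice of the CD4+ lineage. Acetylation of lysine 27 on histone H3 (H3K27ac) marks active promoters and enhancers. Cohesin is a ring complex that shapes chromatin loops, with Rad21 as the subunit that closes the ring and Smc1a as one of its long arms.

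The study used chromatin immunoprecipitation with sequencing (ChIP-seq) on sorted CD4+ CD8+ double positive (DP) thymocytes of mice aged 6 weeks. The KO group carried a floxed Rad21 allele deleted by a Cre transgene under Cd4 control, and the WT group came from littermates labelled as wild type. H3K27ac was mapped in 2 KO and 2 WT libraries, and Smc1a in 2 WT libraries, so Smc1a was not measured without Rad21. Cd4-driven Cre acts from about the DP stage, after the onset of Tcf7 expression in normal development. The labels do not state which of the alleles the controls carried, and they do not tie a library to 1 mouse or to a pool. The lists hold neither gene names nor expression values, so the cell type and the loss of Rad21 could not be checked against marker genes. In sorted bulk cells, acetylation in fewer cells and less acetylation per cell cannot be told apart.

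The H3K27ac lists held 15686 to 21973 peaks and covered 45.6 to 56.3 Mb. WT replicate 2 was the lowest on both measures and WT replicate 1 the highest. The lists hold no read counts, so depth is unknown, and the absence of a peak means only that none was called. Scores are the authors' peak caller values. They start at about 50 and many peaks share a value of 3100, so they are used to rank peaks within a list.

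RefSeq (assembly GRCm38.p6) places Tcf7 between the protein-coding genes Skp1 and Vdac1, and Lef1 between Rpl34 and Hadh. It lists 2 promoter sequences for Tcf7, on the minus strand, and 4 for Lef1, on the plus strand. That assembly is not the build of the peak lists, so peaks could not be assigned to a start site, exon or intron. Of these, 3 are printed to show how the listed starts of both genes differ in base composition. Each sequence runs from 250 bases before to 50 bases after a start, on the strand of the gene, and capitals mark the core CTTTG of TCF/LEF sites or its complement CAAAG.
Tcf7 start 1: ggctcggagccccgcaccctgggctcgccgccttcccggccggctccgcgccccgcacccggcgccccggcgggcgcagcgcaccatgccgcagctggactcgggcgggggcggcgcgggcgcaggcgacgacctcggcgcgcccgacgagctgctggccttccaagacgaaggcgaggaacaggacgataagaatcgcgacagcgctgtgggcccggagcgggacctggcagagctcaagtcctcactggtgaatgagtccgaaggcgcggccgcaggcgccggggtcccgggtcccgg
Lef1 start 1: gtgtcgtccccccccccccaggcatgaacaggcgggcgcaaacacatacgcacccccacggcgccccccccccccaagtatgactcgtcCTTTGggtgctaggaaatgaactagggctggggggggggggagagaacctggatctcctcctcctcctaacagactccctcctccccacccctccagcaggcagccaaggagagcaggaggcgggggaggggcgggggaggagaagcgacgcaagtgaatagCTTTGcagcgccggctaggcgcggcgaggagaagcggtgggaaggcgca
Lef1 start 4: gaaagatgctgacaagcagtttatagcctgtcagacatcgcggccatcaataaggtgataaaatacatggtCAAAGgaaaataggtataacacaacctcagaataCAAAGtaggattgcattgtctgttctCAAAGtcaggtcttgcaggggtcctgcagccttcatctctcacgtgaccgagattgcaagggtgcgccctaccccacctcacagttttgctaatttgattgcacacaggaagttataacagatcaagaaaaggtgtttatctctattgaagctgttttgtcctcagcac

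Tcf7 start 1 holds an ATG at base 86 that opens 71 codons without a stop up to its end, the reading frame known from the N-terminus of full-length TCF-1. Much of it is therefore coding sequence, and its values do not describe a promoter alone. It had 45 CpG dinucleotides and Tcf7 start 2 had 17, against a median of 7 over 32851 mouse promoters. Fewer CpGs were found in 98.1% of those promoters than in Tcf7 start 1 and in 68.6% than in Tcf7 start 2. Neither Tcf7 sequence held CTTTG on either strand. Lef1 start 1 had 18 CpGs and 2 CTTTG cores, and Lef1 start 4 had 5 CpGs and 3 cores. A core this short was found on either strand of 53.9% of all promoters of that length, so its presence is a description of the letters and not a site. The letters CCGGAA, 1 form of the site of ETS factors, were searched on both strands. They were found once, in Tcf7 start 2, and in 14.9% of all promoters. Other forms of that site were not searched, so a sequence without CCGGAA may still hold one. The core TGTGGT of RUNX factors was found in none of the 6 sequences and in 16.8% of all promoters.

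The first comparison asked how much of each locus lay in called acetylated chromatin with and without Rad21. At Tcf7, H3K27ac peaks covered 90.9 and 84.4 kb in the KO libraries, against 105 and 100.3 kb in the WT libraries. Each KO value lay below each WT value, and the means were 87.7 ± 4.55 kb in KO and 102.7 ± 3.44 kb in WT (SD, n = 2 each), so the KO mean was 85.3% of the WT mean. At Lef1 the peaks covered 35.7 and 31.9 kb in KO and 57.1 and 41.9 kb in WT. The groups again did not overlap, with means of 33.8 ± 2.65 kb in KO and 49.5 ± 10.7 kb in WT (SD, n = 2 each), so the KO mean was 68.3% of the WT mean. The covered length of the whole lists was close in the groups, with a KO mean 98.4% of the WT mean. The exact two-sided permutation test over the 4 libraries gave p = 0.333 at both loci, which is the smallest p that 2 libraries against 2 allow.

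**Figure D1:**
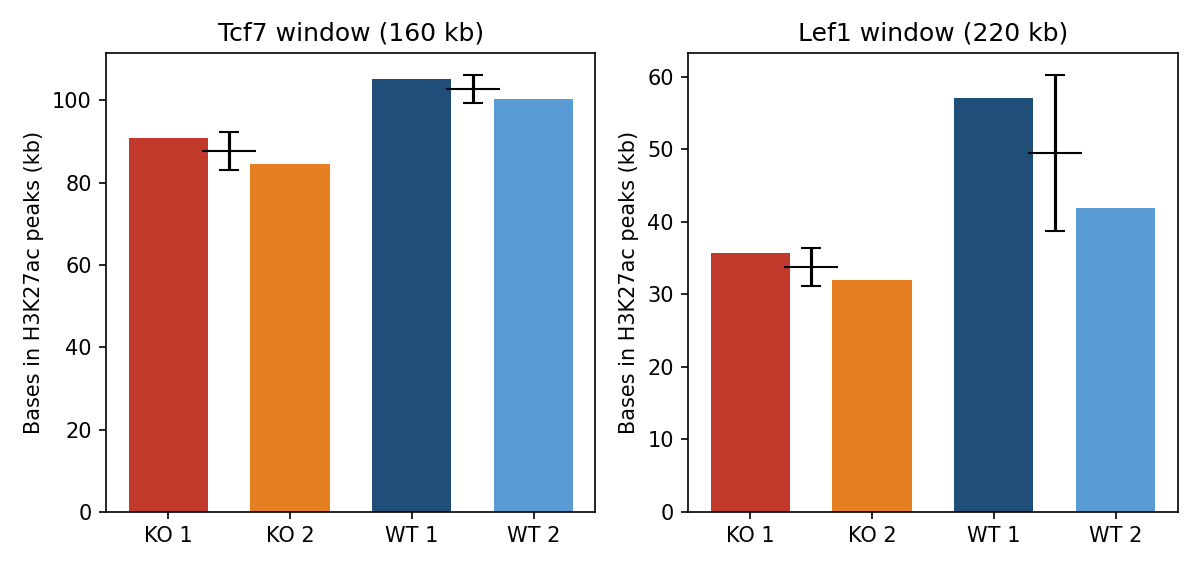
Bases in H3K27ac peaks (kb) in the Tcf7 and Lef1 windows, 1 bar for each library, with the group mean (horizontal line) and SD (error bar, n = 2). Both KO bars are lower than both WT bars in each window, and the WT libraries at Lef1 lie far apart, at 57.1 and 41.9 kb.

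The background for these differences depends on how much acetylated chromatin a window holds. When the genome was tiled in windows of 160 kb, 16.7% of those with peaks in all 4 libraries had both KO values below both WT values, and 15.9% did with windows of 220 kb. Among windows with a mean covered length of at least 47.6 kb (160 kb windows) or 20.8 kb (220 kb windows), limits chosen after the values were seen, these shares were 72.9% (51 of 70) and 40.5% (252 of 622). The median KO share of the WT length in those rich windows was 82.2% at the Tcf7 size and 90.5% at the Lef1 size. The Tcf7 value of 85.3% thus lay near the middle of its rich windows, 41 of which were lower. The Lef1 value of 68.3% lay low among its own, with 45 of 622 lower, but this place depended on the WT libraries. Without WT replicate 1 the Lef1 value was 80.6% and 106 of 622 windows were lower, and without WT replicate 2 it was 59.2% and 23 were lower.

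The Tcf7 window stood out in the length of called acetylation itself. The 4 libraries had 52.8% to 65.7% of the Tcf7 window in peaks, and their mean of 95.2 kb was exceeded in 2 of 5184 tiled windows of that length. The median tiled window held 5.95 kb. The Lef1 window held a mean of 41.7 kb, exceeded in 150 of 4408 windows. Peaks were not assigned to genes, so these lengths belong to the windows and may include acetylation of neighbouring genes. The loci were placed on a gene and the tiles on a fixed grid, so these ranks are descriptions.

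Peaks were about as many in KO as in WT libraries at Tcf7, with 13 and 16 in KO and 16 and 13 in WT. At Lef1 there were 9 and 10 in KO and 18 and 10 in WT, and the excess was in WT replicate 1 (exact permutation p = 0.667). Peaks at the score of 3100 numbered 3 and 3 in KO and 3 and 2 in WT at Tcf7. Of all peaks, 5.02% to 6.98% per list had that score or more. At Lef1 there were 1 and 1 such peaks in KO and 2 and 1 in WT. The widest peak of each library at Tcf7, whatever its score, measured 29969 to 38429 bp. The one of 38429 bp, in WT replicate 2, had a score of 1822.78.

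Union regions were formed by joining H3K27ac peaks that overlapped or touched in any library, and they are numbered along the chromosome. Their names give the window, and no region was assigned to a gene. Tcf7 had 14 such regions, of 1212 to 39720 bp, and Lef1 had 16, of 1147 to 11280 bp. At Tcf7 every gap between neighbours was at most 7023 bp. The Lef1 regions were more scattered, with gaps of up to 54927 bp. All 4 libraries held 10 of the 14 Tcf7 regions (71.4%) and 7 of the 16 Lef1 regions (43.8%), against 49.6% of the 24430 union regions of the genome.

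**Figure D2:**
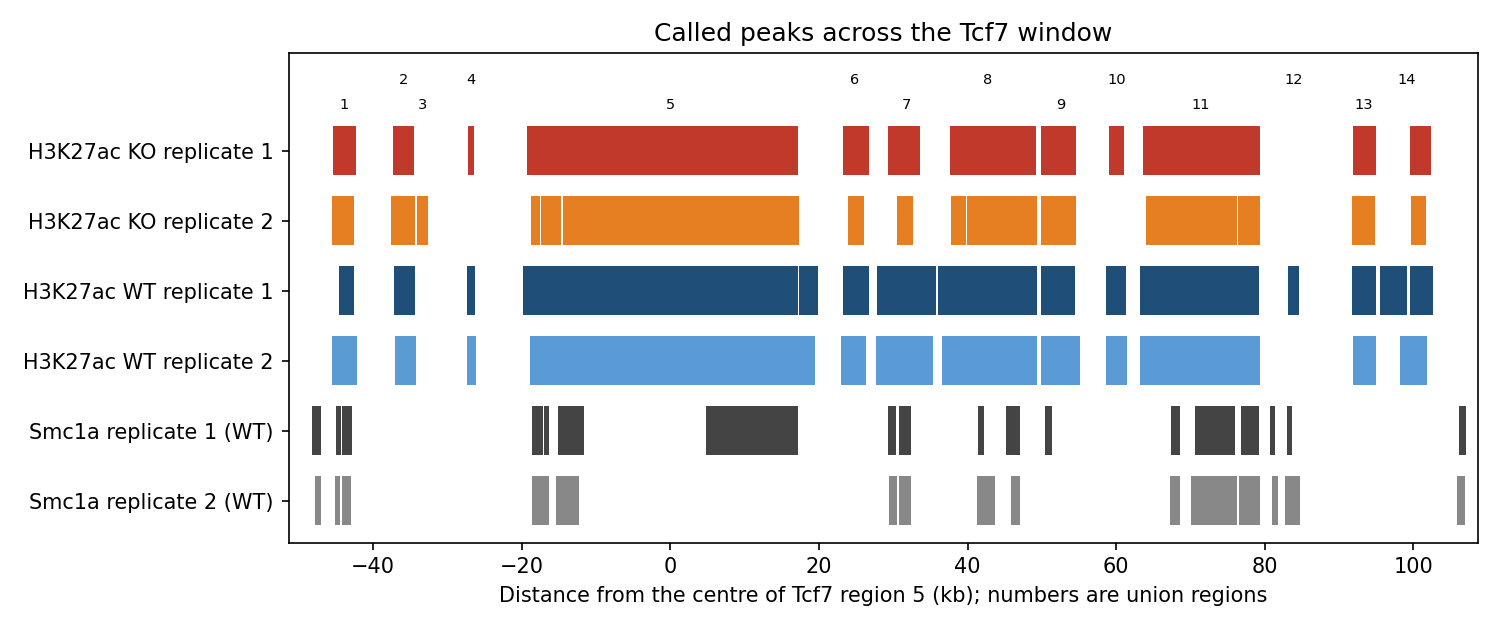
Called peaks in the Tcf7 window by library, with distance from the centre of region 5 (kb) on the x axis and union region numbers above. The long blocks of regions 5, 8 and 11 are present in all 4 H3K27ac libraries, and region 7 is narrower in both KO libraries, with 4217 and 2150 bp covered, than in both WT libraries, with 7972 and 7569 bp.

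Of the 10 Tcf7 regions called in every library, 6 had both KO covered lengths below both WT lengths, 1 had both above and 3 overlapped. At Lef1, 3 of 7 had both below, none had both above and 4 overlapped. Over the 12129 such regions of the genome the KO values lay below in 22.9% and above in 17.4%. Regions of at least 10000 bp had both KO values below in 48.5% of 565 cases, and all 5 of this size at the loci (3 at Tcf7, 2 at Lef1) did. The median KO share of the WT length was 94.1% at Tcf7 and 86.9% at Lef1, against 98.4% over the genome. Scaled to the covered length of each library, 2 of the 10 Tcf7 regions (7 and 14) and 1 of the 7 Lef1 regions (7) still had both KO values below. The share over the genome was then 15.8%.

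With 2 libraries a group, no single region can reach a p below 0.333 either, so the regions are given as values. The longest stretch at Tcf7 was region 5 (chromosome 11, 52061516 to 52101235, 39720 bp). Calls took up 36538 and 35810 bp in KO and 39689 and 38429 bp in WT libraries. The difference sat mainly at its right end, where the KO calls stopped at 52098608 and 52098740 and the WT calls at 52101235 and 52100886. From 52098741 to 52100886 (2146 bp) both WT libraries and no KO library were covered. In KO replicate 2 the stretch was reported as 4 peaks and in KO replicate 1 as 1, so the number of peaks says little about the extent of acetylation here.

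The widest gap between the groups at Tcf7 was in region 7, from 52109115 to 52117105 (7991 bp). KO libraries covered 4217 and 2150 bp of it and WT libraries 7972 and 7569 bp, so that the KO mean was 41.0% of the WT mean. The KO calls were narrower on both sides, at 52110732 to 52114948 in KO replicate 1 and 52111925 to 52114074 in KO replicate 2, against 52109134 to 52117105 in WT replicate 1 and 52109115 to 52116683 in WT replicate 2. The score did not part the groups, with 1040.12 and 664.84 in KO and 2476.92 and 539.14 in WT. The difference in covered length was -4587 bp and ran from -3553.5 to -5620.5 bp with single libraries left out.

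Region 8 begins 294 bp beyond region 7, at 52117400, and runs to 52130785 (13386 bp). It was covered over 11460 and 11558 bp in KO and 13323 and 12805 bp in WT. Its right end differed little, while its left end lay at 52119038 and 52119180 in KO and at 52117400 and 52117960 in WT. The stretch between regions 7 and 8 was therefore wider without a call in KO libraries, on both of its sides.

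Region 11, from 52144605 to 52160771 (16167 bp), differed little in size, with 15703 and 15294 bp in KO and 16056 and 16080 bp in WT (96.5% of the WT mean). The difference of -569.5 bp was -365 bp without KO replicate 2. It reached a score of 3100 in every library. Region 14, from 52176889 to 52183961, had 2851 and 2052 bp in KO and 6680 and 3471 bp in WT. The WT libraries lay far apart: the difference was -2624 bp, -1019.5 bp without WT replicate 1 and -4228.5 bp without WT replicate 2.

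The remaining Tcf7 regions were smaller. Region 10 (2773 bp) had 2052 bp in KO replicate 1 and no call in KO replicate 2, against 2724 and 2773 bp in WT. Region 4 (1212 bp) had the same pattern at scores of 62.60 to 64.38, close to the lowest in the lists. Region 2 (3317 bp) was the one called everywhere with more in KO, at 2838 and 3203 bp against 2809 and 2801 bp in WT. Region 3 was called in KO replicate 2 alone (1508 bp) and region 12 in WT replicate 1 alone (1490 bp), both at scores under 100. Region 1 (3343 bp) overlapped between the groups, with 3103 and 2936 bp in KO and 2080 and 3343 bp in WT. Regions 6 and 9 overlapped as well, and region 13 had 3096 and 3166 bp in KO and 3195 and 3208 bp in WT.

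**Figure D3:**
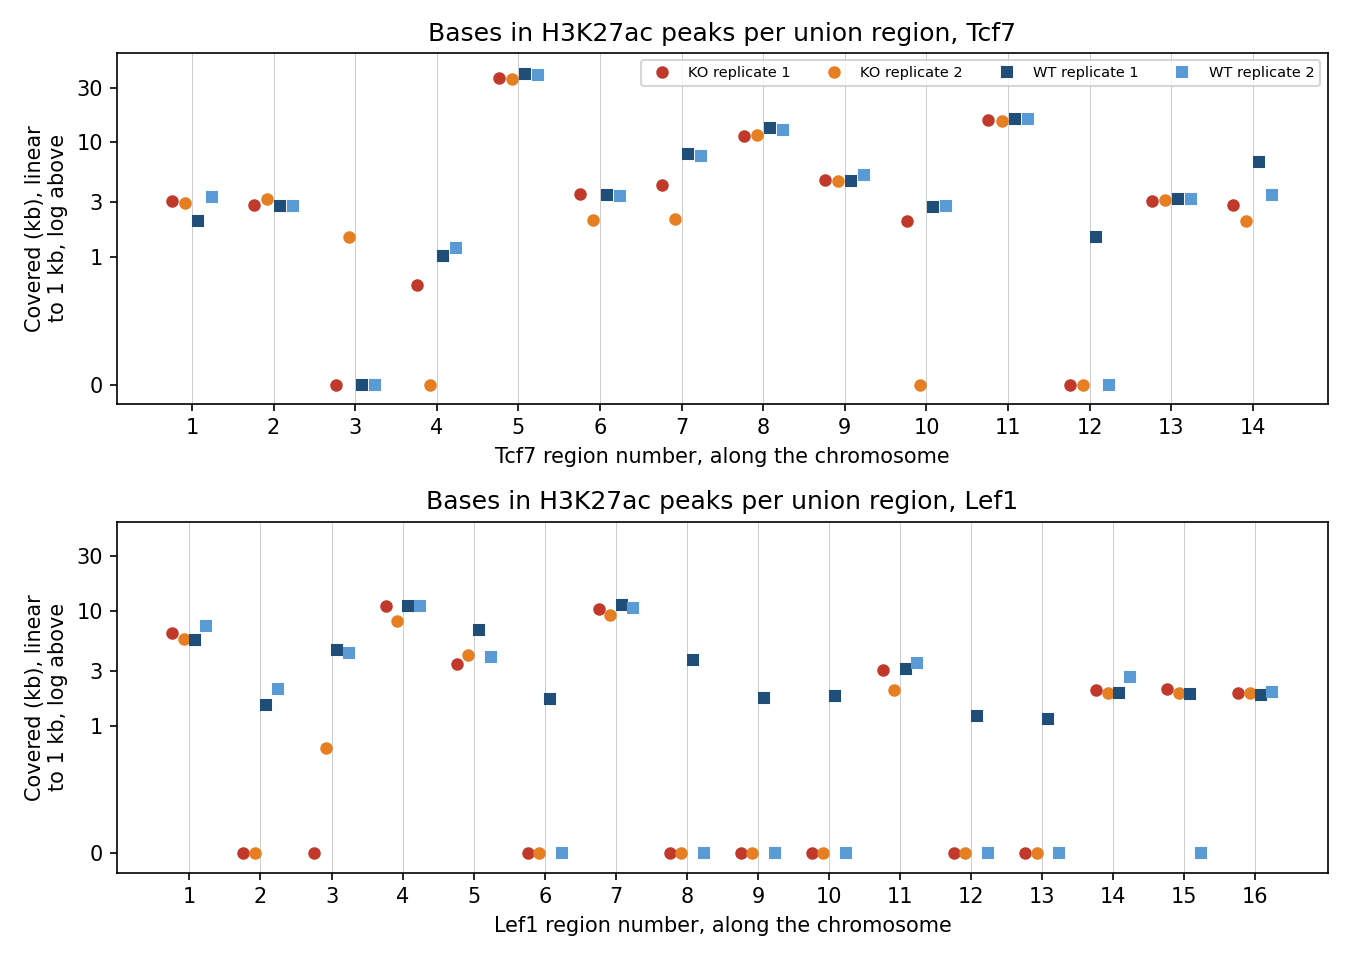
Bases in H3K27ac peaks (kb, linear up to 1 kb and logarithmic above) in each union region of the Tcf7 (upper) and Lef1 (lower) windows, for the KO (circles) and WT (squares) libraries. Tcf7 region 7 and Lef1 regions 2 and 3 have the KO points clearly below the WT points, and 6 Lef1 regions have a value above 0 in WT replicate 1 alone.

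At Lef1 the groups parted most at the left end of the window. In region 3 (chromosome 3, 130767163 to 130771699, 4537 bp), KO replicate 1 had no call and KO replicate 2 had 829 bp at a score of 54.72. The WT calls spanned 4537 and 4325 bp, with scores of 463.26 and 227.77. The KO mean was 9.35% of the WT mean, and the difference of -4016.5 bp ran from -3602 to -4431 bp with single libraries left out. Both WT libraries and no KO library were covered from 130768502 to 130771537, over 3036 bp. That was the longest such run in either window.

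Region 2, from 130762213 to 130764292 (2080 bp), was the single region of the loci with a peak in both WT and neither KO library, a class (WT-only) that holds 2.33% of union regions in the genome. Its scores were low, at 58.05 and 92.81, and it was absent from both WT lists when each list was reduced to its upper 75% by score. No region had peaks in both KO libraries alone, a class of 2.82% in the genome. Region 1, from 130754217 to 130761790, crosses the edge of the window and had 6408 and 5703 bp in KO and 5617 and 7469 bp in WT, so the groups overlapped.

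**Figure D4:**
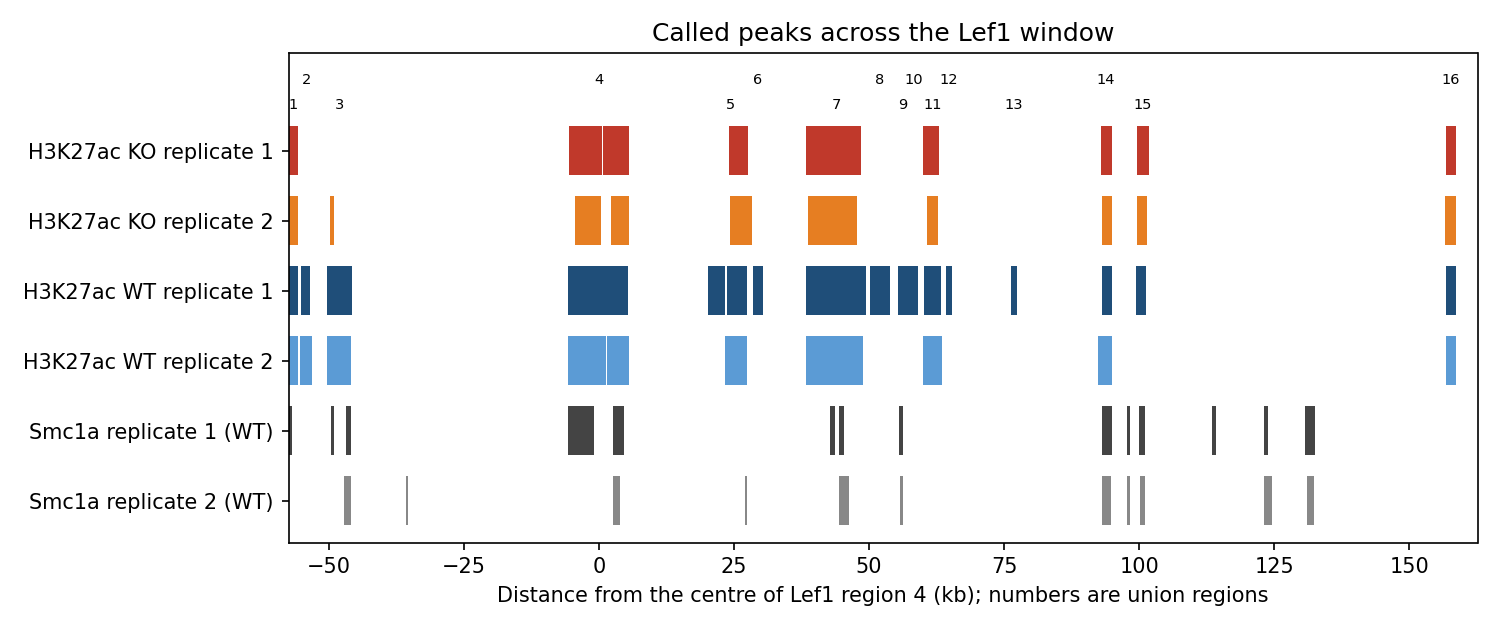
Called peaks in the Lef1 window by library, with distance from the centre of region 4 (kb) on the x axis and union region numbers above. Region 3 has no call in KO replicate 1 and 829 bp in KO replicate 2, against 4537 and 4325 bp in the WT libraries, while the blocks of regions 4 and 7 are called in all 4 libraries.

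A pair of long regions was called in every library. Region 4, from 130811775 to 130823054 (11280 bp), had 11030 and 8205 bp in KO and 11044 and 11084 bp in WT. KO replicate 1 was barely below the lower WT library. The difference of -1446.5 bp was -34 bp without KO replicate 2 and -2859 bp without KO replicate 1. Region 7, from 130855682 to 130866907 (11226 bp), had 10332 and 9188 bp in KO and 11199 and 10669 bp in WT, with a score of 3100 in each. The difference of -1174 bp was -602 bp without KO replicate 2. Region 11 (3617 bp) had 3075 and 2059 bp in KO and 3147 and 3516 bp in WT.

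Much of the excess of WT at Lef1 was carried by WT replicate 1. It alone called regions 6, 8, 9, 10, 12 and 13, which sum to 11365 bp, with scores of 50.94 to 116.26. Of these, region 8 had 3720 bp and region 9, which holds a Smc1a site, 1763 bp. Region 5 (8274 bp) was also widest there, with 3456 and 4154 bp in KO and 6828 and 3950 bp in WT, so the groups overlapped. The KO minus WT difference in covered length was -15721 bp with all libraries and -8129.5 bp without WT replicate 1. It was -6903 bp with the upper 75% of each list and -8059.5 bp with equal numbers of peaks, and both KO values still lay below both WT values in each of these 2 settings. Narrowing the window by 20000 bp on each side leaves out regions 1 to 3 and region 16. KO libraries then had 32.0 and 27.5 kb and WT libraries 47.4 and 31.9 kb, so the groups overlapped.

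Lef1 region 15, from 130916789 to 130919145 (2357 bp), went the other way. It had 2090 and 1915 bp in KO and 1911 bp in WT replicate 1, and no call in WT replicate 2, the shortest list. Region 14 (2673 bp) had 2058 and 1941 bp in KO and 1929 and 2673 bp in WT, and region 16 (2015 bp) 1937 and 1938 bp in KO and 1845 and 1956 bp in WT, so both overlapped.

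Counting bases avoids the question of how a stretch is split into peaks. Of the bases that lay in a peak of at least 1 library, all 4 libraries covered 72.9% at Tcf7 and 45.6% at Lef1, against 49.5% over the genome. Bases in both WT and no KO library made up 7.95% at Tcf7 and 10.3% at Lef1, against 3.50% over the genome. Counted among the bases in both WT libraries, those in no KO library were 9.03% at Tcf7, 16.0% at Lef1 and 5.86% over the genome. On that base all 4 libraries shared 82.8% at Tcf7, close to 82.7% over the genome, and 70.5% at Lef1. Bases in both KO and no WT library made up 0.175% at Tcf7 and 0.613% at Lef1, against 2.89%. The genome shares are not matched for how much acetylated chromatin a window holds. Both KO values lay below both WT values more often in rich windows and long regions, and base shares were not computed for those. An excess over the genome is therefore not shown to be particular to these loci. The bases in both WT and no KO library came to 8777 bp in 13 runs at Tcf7 and 6319 bp in 10 runs at Lef1, and 5 and 2 of those runs were at least 500 bp long. Bases of a single WT library and no KO library made up 28.2% at Lef1 and 7.25% at Tcf7, against 12.1% over the genome. At Lef1 the 6 regions called in WT replicate 1 alone hold 11365 bp of them.

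**Figure D5:**
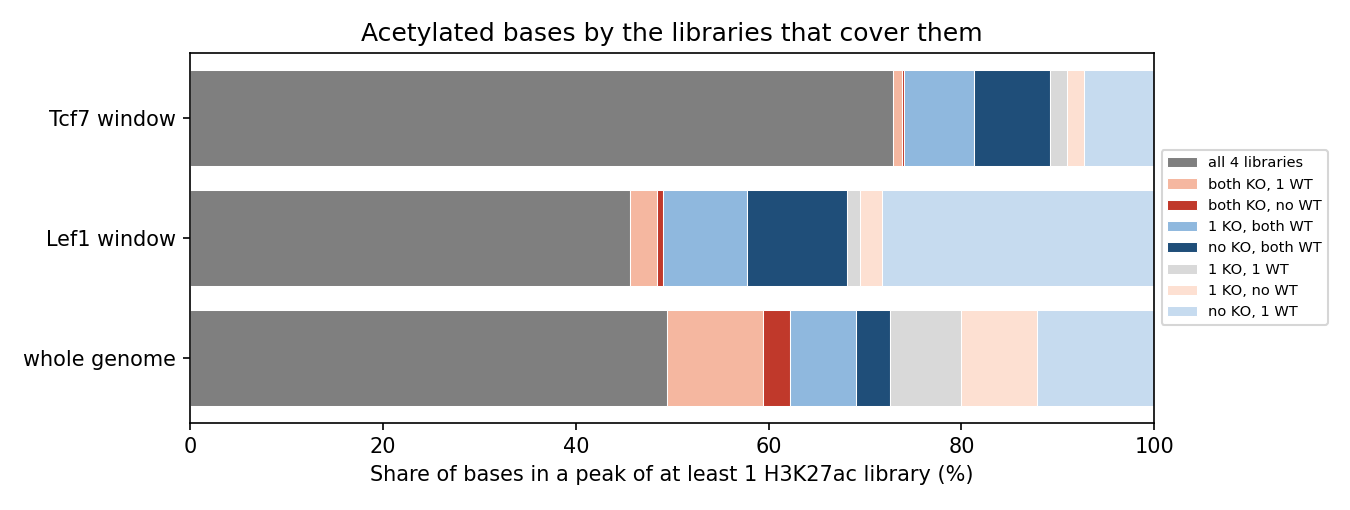
Share of bases (%) in a peak of at least 1 H3K27ac library, by how many KO and WT libraries cover them, for the Tcf7 window, the Lef1 window and the whole genome. Bases in no KO and both WT libraries (dark blue) take 7.95% at Tcf7 and 10.3% at Lef1 against 3.50% over the genome, and bases in both KO and no WT library (dark red) 0.175% and 0.613% against 2.89%. The genome shares are not matched for how much acetylated chromatin a window holds.

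The ratio of Lef1 to Tcf7 covered length was 0.393 and 0.378 in KO and 0.543 and 0.418 in WT. The groups did not overlap, but the WT libraries differed by more than the distance from the lower WT to the higher KO value (exact permutation p = 0.333, the smallest possible). The difference between KO and WT was therefore not shown to vary between the loci.

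Smc1a was next placed along both loci in WT cells. A reproducible site was a merged region with a peak in both Smc1a libraries, and Tcf7 held 15 of them and Lef1 9. In tiled windows the median was 2. At least 15 were found in 5 of 5184 windows of 160 kb, and at least 9 in 135 of 4408 windows of 220 kb. At Tcf7, 12 of 15 sites (80.0%) and at Lef1 6 of 9 (66.7%) overlapped an H3K27ac union region, against 27.5% of the 14848 sites of the genome. However, union regions took up 110370 of the 160000 bp of the Tcf7 window and 61214 of the 220000 bp of the Lef1 window. A site placed anywhere in such a window would often overlap one. The genome share is not matched for this, and its part in the difference was not tested. Broad sites were common at Tcf7, where 5 of 15 were at least 2000 bp long, against 3.62% over the genome and none at Lef1.

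The widest Smc1a site of the loci lay within Tcf7 region 11, from 52151479 to 52157611 (6133 bp), with scores of 816.97 and 513.72. Sites of 2725 bp (52157943 to 52160667) and 1353 bp (52148677 to 52150029) lay in the same region. All 3 overlapped acetylated calls in every library. Region 5 held sites of 2318 and 3679 bp near its left end. A further Smc1a call of 12467 bp near its right end was made in replicate 1 alone, so it was not counted as reproducible.

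The highest Smc1a score at Tcf7 belonged to a site in region 7, from 52110720 to 52111897 (1178 bp). Its scores of 1579.87 and 701.19 have percentile ranks of 99.4 and 97.6 in their lists. This site lies at the left margin of the acetylation still called in KO cells. KO replicate 1 covered 1166 bp of it and KO replicate 2 none, against all 1178 bp in both WT libraries. A weaker site in the same region, from 52112182 to 52113799, stayed within the calls of all 4 libraries.

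Region 1 held sites of 685 and 1374 bp, and region 8 sites of 2421 and 1980 bp, and each overlapped a call in every H3K27ac library. Region 12, called in WT replicate 1 alone, held a site of 1898 bp. The other Tcf7 sites lay outside acetylated regions, at distances of 1353 to 3319 bp, from 52033170 to 52034425, from 52162125 to 52163103, and from 52187281 to 52188460. The last of these had scores of 645.49 and 221.63.

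At Lef1 the strongest acetylated site lay in region 3, the region with little or no call in KO. It ran from 130770243 to 130771576 (1334 bp), with scores of 800.73 and 406.78, at percentile ranks of 93.7 and 90.5. KO calls covered none of it and WT calls 1334 and 1295 bp. Of the 3172 Smc1a sites of the genome with acetylation in both WT libraries, 3.81% had none in either KO library. At Lef1 this held for 1 of 4 such sites and at Tcf7 for 0 of 11. Of these 11 Tcf7 sites, 1, in region 7, was covered in a single KO library, against 5.80% of the 3172 sites over the genome.

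Other Lef1 sites within acetylated chromatin were in region 4 (1934 bp), region 7 (1823 bp) and region 14 (1810 bp), all covered in every library. Sites in regions 9 and 15 lay where single libraries lacked or alone held the call. Outside acetylated regions, the sites from 130940466 to 130942016 and from 130948024 to 130949879 were 21320 and 24193 bp from the nearest acetylated region. They had scores of 878.05 and 244.78, and of 403.93 and 248.44. Another site, of 616 bp, lay 1112 bp from a region.

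Regions with both KO values below both WT values included some with and some without a Smc1a site. At Tcf7, 6 of the 14 regions held a reproducible site and 4 of the 8 regions with lower KO values did. At Lef1, 7 of 16 held a site (that of region 1 lies left of the window), and 3 of the 5 such regions did. These 8 and 5 regions include some that were not called in all 4 libraries. The share of lower KO values over all union regions of the genome was not computed. Over those called in all 4 libraries it was 22.9%. Over the genome 14.0% of union regions held a site, and regions at these loci are longer than most, with medians of 3581.5 bp at Tcf7 and 2515 bp at Lef1 against 2076 bp. The part of region length in this difference was not tested.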

How the data were processed

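The authors deposited peak lists of 6 of the 11 samples, with a start, an end and a peak caller score for each peak. Per the submitters' processing notes, reads were aligned with Bowtie 0.12.8 to mm9. Peaks carry MACS names in the deposited lists, which were called for each library. The sources used here give no caller version, settings or matching input, and the 5 input libraries were not analysed here.

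Intervals were merged, intersected and counted with Python 3.11.15, numpy 2.4.6 and pandas 2.3.3, and figures were drawn with matplotlib 3.10.9. Peaks that overlap or touch were merged, an overlap of 1 bp counted, and covered lengths were clipped to the window. Coordinates count from 1. Interval functions were tested on simulated data.

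KO and WT were compared with exact two-sided permutation tests over the 4 H3K27ac libraries. The p-values measure only the spread between these samples, which may be technical. Values in full were given for the 3 longest regions of each locus, regions of a single genotype, regions with a reproducible Smc1a site and the 3 greatest differences. Other regions were added after their values were seen. Members and lists were chosen with earlier results of these data known. Lists of marker and Wnt pathway genes were not tested, since no mm9 annotation was used here. Replicate numbers are shared between the groups, but no label ties a number to a litter or day. Alternatives were a stricter score threshold, equal numbers of peaks, other window edges, joined peaks, scaling to the covered length of the library, a 50% overlap, left-out libraries and the replicate block. The rank of each locus among acetylated windows without single libraries was added after seeing the data.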

Additional observations from a re-analysis of the deposited data

How the results depend on the processing

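The KO minus WT differences in the covered length of the whole windows kept their direction in every alternative run. Those of single regions did not all do so: Lef1 region 5 was at -1584 bp but at 46.5 bp with the upper 75% of each list or equal numbers of peaks, Tcf7 region 1 at 308 bp but -323.5 bp without WT replicate 1, and Lef1 regions 1 and 14 at -487.5 and -301.5 bp but 438.5 and 70.5 bp without WT replicate 2. In all 4 of these regions the groups overlap. Lef1 regions 2, 8 and 9 and Tcf7 region 12 had no call with the upper 75%. At Tcf7 the KO minus WT difference was -15059 bp and ran from -18276.5 to -11841.5 bp with single libraries left out, and at Lef1 it was -15721 bp and ran from -23312.5 to -8129.5 bp. The difference in peak number ran from -1.5 to 1.5 at Tcf7 and from -8.5 to -0.5 at Lef1. With the replicate number as a block the differences were -15059 and -15721 bp, the same by construction, with a smallest possible p of 0.5. Same-numbered libraries deviated together only weakly (correlation 0.0283 across 24430 union regions, 0.130 across those in all 4 lists, with regions not independent).

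Regions called in all libraries at Tcf7 numbered 10, but 6 when merged within 1000 bp and 6 in the narrowed window. WT-only regions at Lef1 numbered 1, but 2 with a 50% overlap, 0 when merged within 1000 bp and 0 in the narrowed window. With single libraries left out, WT-only regions ran from 0 to 2 at Tcf7 and from 1 to 8 at Lef1, the 8 arising without WT replicate 2, and KO-only regions from 0 to 1 at each. Sites of Smc1a in acetylated regions at Tcf7 numbered 12, but 7 with the upper 75% of each list. With 1 Smc1a library alone, sites at Lef1 numbered 11 to 14 (9 with both), of which 7 to 10 were acetylated (6 with both). Of 136 alternatives to these 16 window-level or genome-wide results, 121 stayed within the set limits, 15 moved and none was reversed. The limits were wide. Those that stayed include the Lef1 difference at -6903 bp with the upper 75% of each list, against -15721 bp. They also include the narrowed Lef1 window at -9906 bp, where the groups overlapped. Only the differences in covered length and the Lef1 difference in peak number could be reversed. Counts and shares have no sign, and the Tcf7 difference in peak number was 0. The replicate block left each difference the same by construction, so it could not move one. A rule on fewer libraries asks for fewer calls, and the cause of the other shifts was not tested. Depth is unknown, so no limit of detection can be given.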
